A study of Mus musculus with 2 samples.

Results

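Ighg3, Ighg1, Ighg2b and Ighg2c encode the constant regions of the gamma heavy chains that define the IgG subclasses of C57BL/6 mice. They are 4 of the 31053 genes in the count matrices, named by symbol and selected on their UMI counts in these same 2 libraries in earlier work, so their differences between the days are descriptions. Transcripts were counted in single B cells sorted by flow cytometry from the colon of female C57BL/6J mice. The day 14 library came from mice given 2% dextran sulfate sodium (DSS), which injures the colonic epithelium, for 7 days and left to recover, and the day 0 library from mice given no treatment. Each day has 1 library, for which a number of mice was not given in the sources used here. A treatment tag of DSS stands on both samples, and the title and protocol give the day 0 group. With 1 library a group no difference could be tested, the intervals below cover counting error only, and mice, day and library cannot be told apart.

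B cells first make IgM and IgD. Class switch recombination then cuts out DNA between switch regions upstream of the constant genes and brings another constant gene next to the rearranged variable exon, so a switched cell no longer transcribes Ighm from that allele. In mice IL-4 is known to direct switching to IgG1, interferon gamma to IgG2c, and TGF-beta to IgG2b and to IgA, while IgG3 is typical of responses that need no T cell help. IgA is the main antibody of healthy gut mucosa, where most plasma cells, the antibody-secreting end stage of B cells, make it.

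In the GENCODE M21 annotation of GRCm38 (mm10), the genes lie on the minus strand of chromosome 12, with Ighg3 at chr12:113356224-113361232, Ighg1 at chr12:113325240-113330523, Ighg2b at chr12:113302965-113307933 and Ighg2c at chr12:113285325-113288932. In the direction of transcription they follow Ighm and Ighd in that order and precede Ighe and Igha. The hinge, the flexible stretch that carries disulfide bonds between the heavy chains, is encoded by exon 2 and is shown because it is where the subclasses differ most. These exons span chr12:113360529-113360576 in Ighg3, chr12:113329844-113329882 in Ighg1, chr12:113307261-113307326 in Ighg2b and chr12:113288263-113288325 in Ighg2c. Each is given 5′ to 3′ on the coding strand, with capitals marking the in-frame cysteine codons.
Ighg3 hinge: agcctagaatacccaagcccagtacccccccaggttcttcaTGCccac
Ighg1 hinge: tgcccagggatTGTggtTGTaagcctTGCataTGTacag
Ighg2b hinge: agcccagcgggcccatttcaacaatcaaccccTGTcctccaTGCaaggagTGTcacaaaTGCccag
Ighg2c hinge: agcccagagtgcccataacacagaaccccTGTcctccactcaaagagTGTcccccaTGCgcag
The Ighg3 hinge exon has 48 bases with 1 cysteine codon, the Ighg1 exon 39 bases with 4, the Ighg2b exon 66 bases with 4 and the Ighg2c exon 63 bases with 3. Between Ighg1 and Ighg2b the hinge exons were 42.4% identical, against 88.3% for their first exons. The closest pair was Ighg2b and Ighg2c, with 77.3% identity in the hinge exon and 94.2% in exon 3. Their secreted transcripts shared no window of 50 bases within the last 400 bases, the end that this 3′ assay reads. The membrane form of Ighg2c shared 14 of 351 such windows (3.99%) with transcripts of the other heavy chain constant genes. The annotated membrane form of Ighg2c has a 3′ UTR of 3 bases, against 1218 in Ighg3, 1304 in Ighg1 and 1352 in Ighg2b. Low Ighg2c counts in B cells that make the membrane form are to be read with that limit, and its part in them was not tested.

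Captured transcripts are counted as unique molecular identifiers (UMIs). There were 12317052 in 4692 cells at day 14 (median 2242 per cell) and 8690102 in 3290 cells at day 0 (median 2279). The B cell receptor gene Cd79a was found in 97.7% of day 14 and 97.8% of day 0 cells. They fell into 11 clusters, made without immunoglobulin genes. By their marker genes 1 was plasma-like (30 cells at day 14 and 25 at day 0) and 1 germinal center B-like (17 and 34 cells), after the sites where B cells mutate and select their antibodies. The other 9 stayed unnamed and are pooled here as pooled B cells (4645 and 3231). Jchain, the chain that joins IgA and IgM units, and the secretion factor Xbp1 were detected in every plasma-like cell of both days. The libraries shared 17 cell barcodes, and none of these was in a cell with at least 10 IgG UMIs or in a cell of IgG class as defined below.

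IgG transcripts were rare in both libraries, with 8540 UMIs at day 14 and 733 at day 0, or 0.0693% and 0.00844% of all UMIs. Ighg3 had 3358 UMIs at day 14 and 29 at day 0. Ighg1 had 1845 UMIs at day 14 and 88 at day 0. Ighg2b had 3333 UMIs at day 14 and 610 at day 0. The order of the subclasses thus differed between the days, with Ighg3 and Ighg2b close together at the top at day 14 and Ighg2b alone at the top at day 0. Ighg2c, the subclass of interferon gamma responses, had 4 UMIs at day 14 and 6 at day 0. Ighe, the IgE gene, had no UMI in either library, which allows a share of cells with a UMI of up to 0.0639% at day 14 and 0.0912% at day 0.

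Summed over the 4 genes and scaled to 1000000 UMIs outside immunoglobulin and mitochondrial genes (CPM), the IgG level was 738 CPM at day 14 and 90.9 CPM at day 0, a ratio of 8.11 (95% interval 7.52 to 8.76). This ratio came from very few cells. Without the 5 plasma-like cells of IgG class at day 14 it was 0.476, from 500 UMIs at day 14 and 733 at day 0. No cell was left out at day 0, where 1 cell held 308 of the 733. At day 14, 1 cell held 3279 of the Ighg3 UMIs (97.7%), 2 cells with 916 and 894 UMIs held 98.1% of Ighg1, and 2 cells with 1879 and 1053 held 88.0% of Ighg2b. At day 0 the top cell of Ighg2b held 308 UMIs (50.5%), the top cell of Ighg1 38 (43.2%) and the top cell of Ighg3 4 (13.8%). Plasma-like cells held 95.3% of the IgG UMIs at day 14 and 18.0% at day 0.

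**Figure D1:**
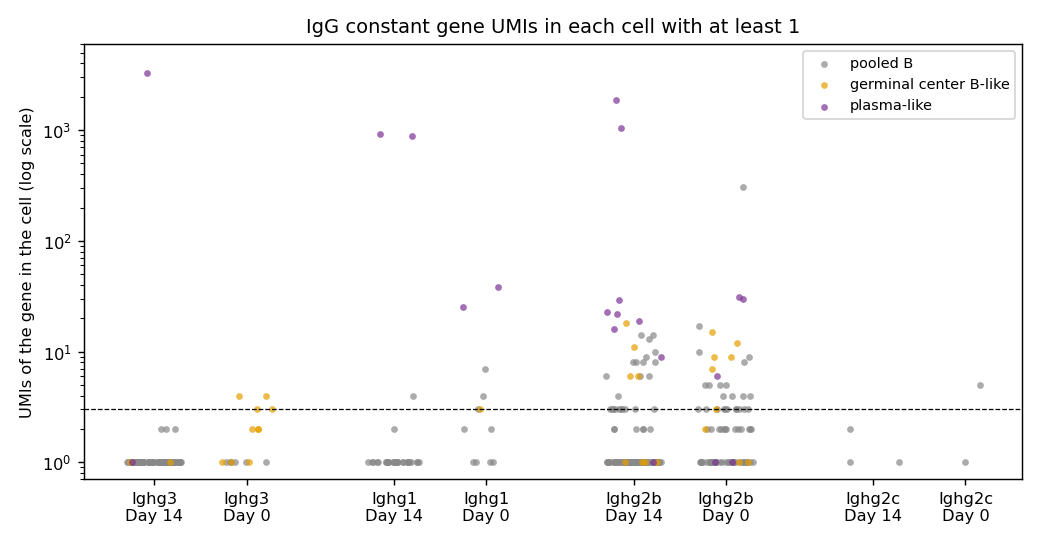
UMIs of each IgG constant gene in every cell that has at least 1, on a log axis, with day 14 left of day 0 for each gene and cells coloured by cell class; the dashed line marks 3 UMIs. At day 14, 5 plasma-like cells stand at 894 to 3279 UMIs, far above all others, while day 0 has 1 pooled B cell at 308 UMIs of Ighg2b and no other above 38.

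IgG was the main heavy chain of 5 plasma-like cells at day 14, while most plasma-like cells of both days made IgA. A plasma-like cell was given the class whose constant genes had at least 10 UMIs and over 50% of its heavy chain constant UMIs. Of 30 cells at day 14, 5 were of IgG class (16.7%, interval 5.64 to 34.7%), 22 of IgA class, 2 of IgM class, and 1 had too few UMIs for a class. Of 25 cells at day 0, none was of IgG class, which allows a share of up to 12%, 24 were of IgA class and 1 was of IgM class. That limit lies within the interval of the day 14 share. An alternative rule took any cell with at least 20 UMIs of the plasma marker list. By it 7 cells were of IgG class at day 14 and 4 at day 0. Those outside the plasma-like cluster were germinal center B-like, apart from the day 0 pooled B cell with 308 Ighg2b UMIs described below. At day 0 none was in the plasma-like cluster. In the plasma-like cluster Ighg3 had 3280 UMIs at day 14 and 0 at day 0, and 3279 of them were in 1 cell. Against a floor of 3 counts in the library, its CPM was at least 705-fold higher at day 14. Ighg1 had 1810 UMIs at day 14, against 63 at day 0, with a CPM ratio of 18.5 (14.4 to 24.2). Ighg2b had 3051 UMIs at day 14, against 69 at day 0, with a CPM ratio of 28.5 (22.5 to 36.8), and Ighg2c had none on either day. The day 0 UMIs of Ighg1 and Ighg2b all lay in cells of IgA class.

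The 5 IgG cells divided into 2 of Ighg1, 2 of Ighg2b, 1 of Ighg3 and none of Ighg2c. Their class was clear, with IgG at 97.7% or more of the heavy chain UMIs of each cell. The Ighg3 cell held 3279 UMIs of Ighg3 and 19 of Ighg2b, and in the other 4 cells a single IgG gene was detected. IgG made up 7.55 to 13.5% of all UMIs in these cells. All 5 expressed mainly the kappa light chain, with 2607 to 15631 UMIs of Igkc. A kappa variable gene led the light chain variable UMIs in 2 of them. In 2 others the lambda gene Iglv1 led, with 39 and 23 UMIs. Those 2 cells held 4021 and 2607 UMIs of Igkc and 51 and 12 of the lambda constant genes. Iglv1 also led in some plasma-like cells of IgA class rich in Igkc, so it is not read as the variable gene of a light chain here. A heavy chain variable gene could be read in 1 of the 5 cells, so relatedness between the cells was not examined. Jchain was also expressed, at 220 to 433 UMIs (median 261), against a median of 803 and a range of 161 to 1979 in the 22 IgA cells of the same library.

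IgG transcripts also appeared in some plasma cells of IgA class. At day 14 Ighg2b was detected in 6 of 22 IgA cells, with 29, 23, 22 and 16 UMIs in the top 4, and Ighg1 in none. At day 0 Ighg2b was detected in 5 of 24 IgA cells, with 31, 30 and 6 UMIs in the top 3, and Ighg1 in 2 with 38 and 25. These stood beside a median of 1462 Igha UMIs per cell at day 14 and 3029 at day 0, so the IgG share of the heavy chain stayed at or below 2.93% at day 14 and 1.48% at day 0. The distribution was uneven, since the other 16 IgA cells at day 14 and 19 at day 0 had no Ighg2b UMI. Whether these are transcripts of the cell itself, of a doublet or of free RNA was not tested.

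**Figure D2:**
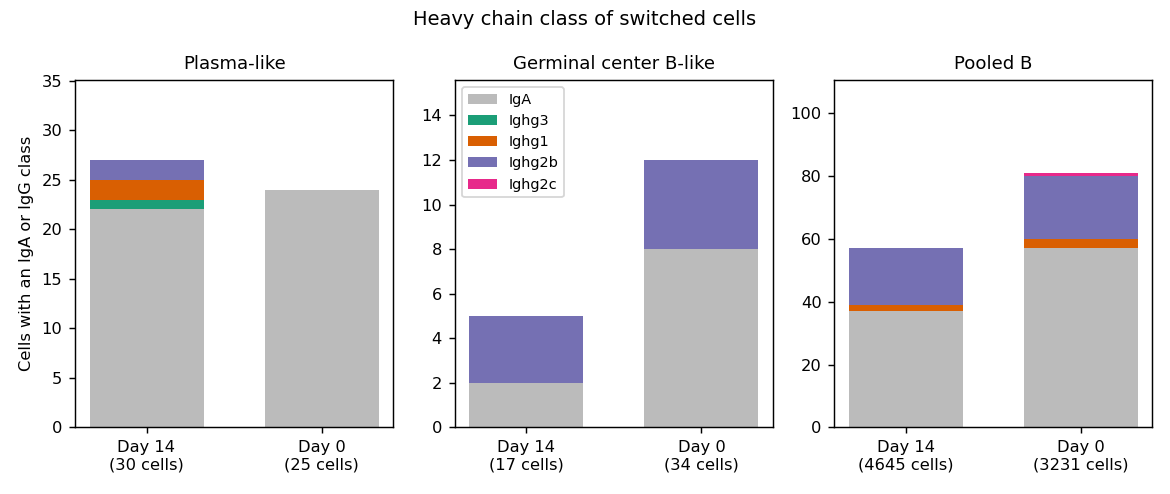
Number of cells of IgA class (grey) and of each IgG subclass (colours) among plasma-like, germinal center B-like and pooled B cells, with day 14 left of day 0 and all cells of the class given below each bar. IgG plasma-like cells (5) are seen at day 14 alone, and Ighg2b is the leading subclass of IgG germinal center B-like and pooled B cells on both days.

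In the pooled B cells the IgG sum was lower at day 14, at 352 UMIs and 31.5 CPM, against 516 UMIs and 67.3 CPM at day 0 (ratio 0.468, interval 0.408 to 0.537). A single cell set this direction, and without the barcode richest in IgG in each library the ratio was 1.12 (0.9355 to 1.332). That day 0 cell held 308 Ighg2b UMIs among 6304 and 1583 of Igkc, while the next cell of its library held 17. It had 94 UMIs of the plasma cell marker list, within the range of 54 to 476 of the plasma-like cells of day 0, but only 12 of Jchain, below their lowest of 43. Mzb1, a chaperone of antibody assembly, had 30 UMIs in it, Xbp1 5, Fkbp11, Txndc5 and Edem1 2 each, and Irf4 1. Sdc1 (CD138) had none, against detection in 100% of the plasma-like cells of day 0, and Prdm1 (Blimp-1), detected in 8% of those, had none. The cell clustered with pooled B cells and is kept there.

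The genes differed in how they were spread over the pooled B cells. Ighg2b had 237 UMIs in 110 cells at day 14 and 482 in 72 cells at day 0. With a ratio of 0.337 (0.287 to 0.395) it was the only one of the 4 whose interval lay below 1. The ratio depends on 1 day 0 cell with 308 of its UMIs (63.9%). Outside the top cell of each library 223 Ighg2b UMIs were left at day 14 and 174 at day 0. The pooled B cells held 11175887 UMIs outside immunoglobulin and mitochondrial genes at day 14 and 7666648 at day 0. Ighg1 had 35 UMIs in 31 cells at day 14 and 22 in 9 cells at day 0, a ratio of 1.09 (0.623 to 1.95). Ighg3 had 76 UMIs in 73 cells at day 14 and 6 in 6 cells at day 0, a ratio of 8.69 (3.81 to 24.4). In none of these cells did Ighg3 reach 3 UMIs, and 70 of the 73 at day 14 held 1. Ighg2c had 4 UMIs in 3 cells at day 14 and 6 in 2 cells at day 0, of which 5 were in 1 cell.

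Free RNA can give single UMIs in cells that do not transcribe a gene. As a rough guide to its level, IgG UMIs were counted in T cells, which should lack IgG transcripts. T cells were taken from the barcodes left out of the authors' cell tables by at least 3 UMIs of T cell genes and none of 3 B cell genes. At day 14, 4 of 39 T cells had an IgG UMI (10.3%, interval 2.87 to 24.2%), 3 of Ighg3 and 1 of Ighg1, and none had more than 1. At day 0, 0 of 48 T cells did, which allows a share of up to 6.25%. Pooled B cells whose Ighm and Ighd UMIs were at least 3 and over 50% of the heavy chain (IgM or IgD class) had an IgG UMI in 3.83% at day 14 and 1.41% at day 0. Median depths were 2928 UMIs in T cells and 2359 in these B cells at day 14, and 3160 and 2332 at day 0. At day 14 Ighg3 was detected in 1.55% of these B cells and 7.69% of T cells, and Ighg1 in 0.507% and 2.56%. These T cell shares rest on 3 UMIs of Ighg3 and 1 of Ighg1. The source of the single UMIs of both genes in B cells was not tested. These single UMIs are not read as expression, and the Ighg3 ratio in pooled B cells rests on them. Ighg2b was detected in 1.81% of these B cells at day 14 and 1.23% at day 0 and in no T cell of either day, where the T cells were too few to show such shares, and its source was not tested. The T cell barcodes, which the authors left out, also held more Ighm than some of the B cells described below, so they are a rough guide to free RNA in the analysed cells.

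IgG UMIs outside plasma-like cells were also set against those inside them, beside Igha and Jchain. For each 100 UMIs in plasma-like cells at day 14, cells of IgM or IgD class held 1.14 of Igha (interval 1.04 to 1.25), 0.590 of Jchain (0.492 to 0.703), 1.56 of Ighg3 (1.16 to 2.04), 0.884 of Ighg1 (0.505 to 1.44) and 2.49 of Ighg2b (1.96 to 3.12). At day 0 the values were 1.49 for Igha (1.40 to 1.58), 0.975 for Jchain (0.869 to 1.09) and 55.1 for Ighg2b (39.0 to 75.6), with 38 Ighg2b UMIs in IgM or IgD class cells and 69 in plasma-like cells. With the 308 UMIs of the top pooled B cell added to the plasma-like ones, that last value was 10.1. Ighg2b thus lay above Igha on both days, the day 14 intervals of Ighg3 and Ighg1 overlapped that of Igha, and Jchain lay below Igha on both days. These ratios thus differed between genes that plasma cells share, and the sources of the UMIs were not tested.

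**Figure D3:**
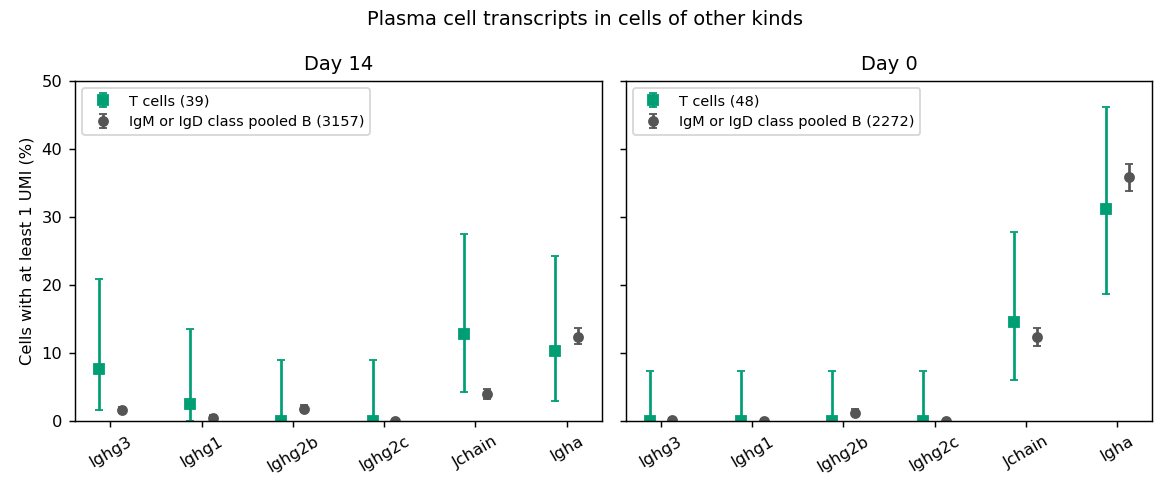
Percent of T cells (squares) and of pooled B cells of IgM or IgD class (circles) with at least 1 UMI of each gene, with exact 95% intervals; day 14 is the left panel and day 0 the right. The IgG genes lie at 0 to 7.69% in T cells and at or below 1.81% in these B cells (the exact interval of a 0 reaches above the limit of 3 counts used in the text), while Igha reached 31.3% of T cells at day 0.

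To leave single UMIs out, a pooled B or germinal center B-like cell was called IgG class when its IgG UMIs were at least 3 and over 50% of its heavy chain UMIs. In pooled B cells, 20 of 4645 at day 14 (0.431%, interval 0.263 to 0.664%) and 24 of 3231 at day 0 (0.743%) were of IgG class, and 37 at day 14 and 57 at day 0 were of IgA class. Ighg2b was the subclass of 18 of the 20 at day 14 and of 20 of the 24 at day 0. Ighg1 was that of 2 at day 14 and 3 at day 0, Ighg2c of 0 at day 14 and 1 at day 0, and Ighg3 of none on either day. The IgG sum of these cells had a median of 6 UMIs at day 14 (range 3 to 14) and 4 at day 0 (range 3 to 308). Just below the minimum, 14 cells at day 14 and 16 at day 0 had 2 IgG UMIs, and 170 and 42 had 1. Of the single UMIs 75 were Ighg2b and 67 Ighg3 at day 14, against 33 and 5 at day 0.

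IgG-class pooled B cells were concentrated in cluster 7, which stayed unnamed. Its leading genes were Cd80, Camk2n1, S100a6, Nt5e, Rgs1, Gpr55, Basp1, Atf3, Nfil3 and Bhlhe41. Cd80, a costimulatory molecule, Nt5e (CD73), S100a6 and Bhlhe41 were listed as memory-associated genes, and Basp1 as a germinal center marker. The cluster held 10 of the 20 cells at day 14 and 14 of the 24 at day 0. That is 8.77% of the 114 cells of the cluster at day 14 and 8.75% of its 160 cells at day 0. The other 8 pooled clusters had at most 0.794% at day 14 and 1.10% at day 0. The same cluster held 33 of the 37 IgA-class pooled B cells at day 14 and 42 of the 57 at day 0.

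Germinal center B-like cells held a second source of IgG. Here 3 of 17 cells at day 14 and 4 of 34 at day 0 were of IgG class, and Ighg2b led in each. Ighg2b had 45 UMIs in 8 of 17 cells at day 14 and 59 UMIs in 9 of 34 cells at day 0, a ratio of 1.20 (0.799 to 1.81). Ighg3 was detected in 2 of 17 cells at day 14, with 2 UMIs, and in 10 of 34 at day 0, with 23 UMIs (ratio 0.137, interval 0.0157 to 0.556). Of those 10 cells at day 0, 4 had at least 3 Ighg3 UMIs, 9 also had Ighm, and in 9 Ighm exceeded Ighg3. The 10 of 34 (29.4%) stand beside 6 of 3231 pooled B cells (0.186%) and 0 of 48 T cells in that library, at a median depth of 5913 UMIs in germinal center B-like cells and 2269 in pooled B cells. Ighg1 had no UMI in these cells at day 14 and 3 in 1 cell at day 0, and Ighg2c had none on either day.

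Switching removes Ighm from the recombined allele, and few cells of IgG class carried its transcripts. In pooled B cells of IgG class, 3 of 20 at day 14 (15%, interval 3.21 to 37.9%) and 4 of 24 at day 0 (16.7%, 4.74 to 37.4%) had an Ighm UMI, against 86.8% at day 14 and 88.0% at day 0 of all pooled B cells. Because Ighm competes with IgG in the class rule, cells with at least 3 IgG UMIs were also taken whatever their Ighm, and then 8 of 26 at day 14 (30.8%) and 7 of 28 at day 0 (25%) carried it. The 6 such cells at day 14 and 4 at day 0 that failed the rule were deep, at medians of 5716 and 4945 UMIs, and 5 of the 6 and 3 of the 4 had over 2 times the median UMIs of pooled B cells. Whether they are doublets was not tested. IgA-class cells carried Ighm in 2 of 37 at day 14 (5.41%) and 13 of 57 at day 0 (22.8%). Ighm was found in 64.1% of T cells at day 14 and 52.1% at day 0, above its share in IgG-class cells (median 3816 UMIs at day 14 and 2900 at day 0), so the T cell barcodes do not give the level of free Ighm in these cells, and its source there was not tested. With each cell thinned to 1000 UMIs, the IgG-class shares were 5% at day 14 and 8.33% at day 0, and those of all pooled B cells 67.6% and 71.0%.

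**Figure D4:**
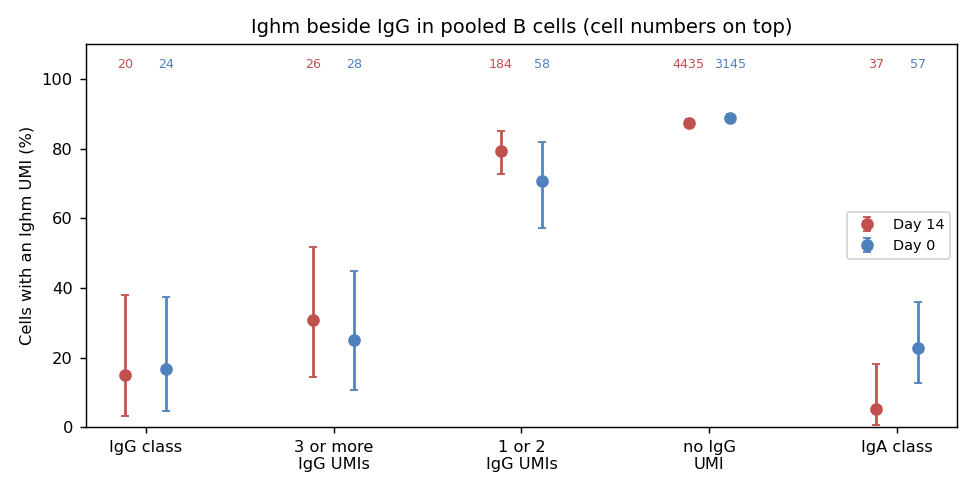
Percent of pooled B cells with an Ighm UMI, by their IgG UMIs or class, with exact 95% intervals and the number of cells on top; day 14 is left of day 0 in each pair. Cells of IgG class lie at 15% and 16.7%, cells with 1 or 2 IgG UMIs at 79.4% and 70.7%, and cells without IgG UMIs at 87.4% and 88.9%.

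Other genes that set IgG-class apart from IgM or IgD class pooled B cells were read within each library, over 773 genes with enough UMIs, from 20 IgG-class cells at day 14 and 24 at day 0. A gene was called when its CPM was at least 1.5-fold apart in the same direction in both libraries, which 35 genes (4.53%) did upward and 17 (2.2%) downward, 6.73% of the 773 in all. IgG-class cells were deeper, with a median of 3816 UMIs at day 14 and 2900 at day 0, against 2359 and 2332 in IgM or IgD class cells. Ranked by the lower of their 2 daily ratios, the highest in IgG-class cells were Lmnb1 (a nuclear lamina protein, 417 against 91.4 CPM at day 14 and 324 against 58.7 at day 0), Zbtb20 (a transcription factor of activated and memory B cells), Grasp, Apoe (apolipoprotein E) and Odc1 (the first enzyme of polyamine synthesis). Apoe stood at 1925 against 597 CPM at day 14, a ratio of 3.22 (2.73 to 3.78), and at 5265 against 912 CPM at day 0, a ratio of 5.77 (5.19 to 6.40). Zbtb20 had ratios of 4.18 (2.60 to 6.40) at day 14 and 3.82 (2.31 to 5.98) at day 0. It was detected in 13 of 20 and 11 of 24 IgG-class cells. Lmnb1, Zbtb20 and Grasp, at 91.4, 64.5 and 63.9 CPM in IgM or IgD class cells at day 14, met the minimum of 20 UMIs only through IgG-class cells. That minimum shaped their rank and the numbers called upward and downward, which are not read as results.

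Ranked by the higher of their 2 daily ratios, the lowest were Fcer2a (CD23, the low-affinity IgE receptor of follicular B cells), Ifi27l2a, Fcmr (the IgM receptor), Hmgn1 and Paip2. Fcmr stood at 85.8 against 464 CPM at day 14, a ratio of 0.185 (0.0742 to 0.381), and at 229 against 619 CPM at day 0, a ratio of 0.371 (0.216 to 0.594). Fcer2a had ratios of 0.315 (0.102 to 0.738) at day 14 and 0.280 (0.112 to 0.578) at day 0. Of 25 memory-associated genes 3 had enough UMIs, of which Zbtb20 and the filament protein Vim were called higher. Low genes such as Zbtb20, at 64.5 CPM in IgM or IgD class cells at day 14, met the minimum through their UMIs in IgG-class cells, so nothing is read from that count. Of 16 naive follicular genes 9 had enough UMIs, with Fcer2a, Fcmr, Satb1 and Foxp1 called lower and Apoe, Klf2 and Ltb higher. Foxp1 had ratios of 0.187 (0.0857 to 0.356) at day 14 and 0.579 (0.381 to 0.844) at day 0. Taking cells with at least 5 IgG UMIs instead left 11 cells a day and 359 genes, of which 18 were called.

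**Figure D5:**
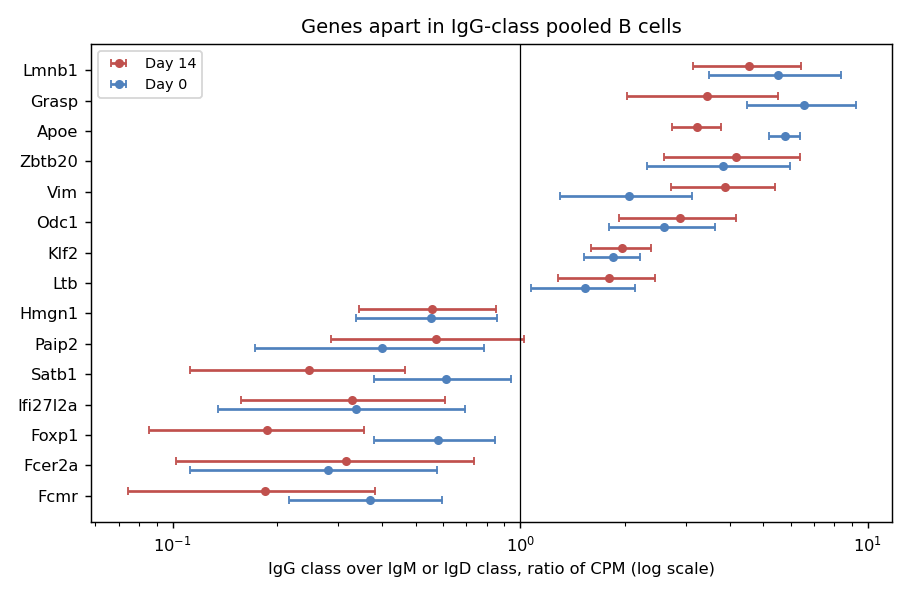
Ratio of CPM in IgG-class over IgM or IgD class pooled B cells, on a log axis, for the 5 highest and 5 lowest genes, ranked by the daily ratio nearer to 1, and the called genes of both lists, with day 14 above day 0 and exact 95% intervals for counting error. Points lie on the same side of 1 in both libraries by the rule that chose the genes, from Fcmr at 0.185 and 0.371 to Grasp at 3.45 and 6.54.

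Genes that make or direct the switch were compared between the days in pooled B cells, where 123 of 8786 genes (1.4%) were at least 1.5-fold higher at day 14 and 390 (4.44%) at least 1.5-fold lower, 5.84% in all. Of 31 measured genes of the switch machinery, 0 were higher and 1 was lower. That gene was Prkdc, the DNA-dependent protein kinase of end joining, with 43 UMIs at day 14 and 45 at day 0 (ratio 0.656, interval 0.421 to 1.02). Parp1, a sensor of DNA breaks and the most abundant of them, stood at 80.4 CPM at day 14 and 102 CPM at day 0 (ratio 0.785). Rnf8 and Nhej1, which mark and join DNA breaks, had ratios of 0.718 and 0.781. Of 29 measured signal genes 1 was lower, Cd40, the receptor through which helper T cells drive switching, at 36.2 CPM at day 14 and 54.5 CPM at day 0 (ratio 0.663, 0.577 to 0.762). Jak3 had a ratio of 1.46 and Il2rg, the shared cytokine receptor chain and the most abundant, one of 0.893. Of the IgG receptors, the inhibitory receptor Fcgr2b had a ratio of 1.02 and Fcgrt, the receptor that recycles IgG, one of 0.710, and neither was called. With median-of-ratios size factors Prkdc (0.695) and Cd40 (0.703) no longer passed 1.5-fold, and Jak3 (1.54) did. The list medians were -0.07, -0.09 and -0.24 in log2, against -0.08 over all genes.

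Over the 7982 cells of both libraries, the genes whose levels most resembled those of each IgG gene showed weak correlations. Pearson's r was 0.275 for Ighg1 with Slpi, 0.210 for Ighg2b with Derl3, a factor of protein quality control in the endoplasmic reticulum, 0.183 for Ighg3 with Prg2, and 0.141 for Ighg2c with Anxa2. Next came Cd28 and Trf for Ighg1, Pon3 and Fam46c for Ighg2b, Ada and Oosp1 for Ighg3, and Fscn1 and Ptch1 for Ighg2c. Plasma-like cells held 98.2% of the Slpi, 78.7% of the Derl3 and 96.7% of the Prg2 UMIs, and these correlations rest on few cells. Slpi was found with Ighg1 in 4 cells, Derl3 with Ighg2b in 18 and Prg2 with Ighg3 in 1. Anxa2 was found with Ighg2c in 4 cells, and plasma-like cells, which had no Ighg2c UMI, held 22.4% of the Anxa2 UMIs. Between the IgG genes themselves r lay between -0.01 and 0.07, and at most 9 cells carried both genes of a pair. In counts this sparse such values describe the cells at hand.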

How the data were processed

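The authors deposited UMI counts per gene and barcode from Cell Ranger 3.0.1, as named in the file headers, for libraries of the Chromium 3′ kit version 2 per the labels, on build mm10 per the submitters' processing notes. The authors' deposited natural log tables (Seurat 3.0 per those notes) list the cells kept, which were 4692 of 4780 barcodes (day 14) and 3290 of 3376 (day 0). That filter and the annotation used for counting were not given in the sources used here. In 499 genes of each table every value matched the natural log of 1 plus the scaled UMIs of the cell within a relative tolerance of 0.001.

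Clusters were made with Scanpy 1.11.5 and leidenalg 0.10.2 from 2000 variable genes, leaving out immunoglobulin, ribosomal protein and mitochondrial genes, with 20 principal components, 20 neighbours and a Leiden resolution of 0.800. A cluster was named from its marker genes. No doublet caller was run, and cells over 2 times the median UMIs were left out as an alternative. Ratios are day 14 over day 0 of CPM, with UMIs outside immunoglobulin and mitochondrial genes as the total, with exact conditional 95% intervals, exact Poisson intervals for sums and Clopper-Pearson intervals for shares (scipy 1.17.1), and the limit for 0 is 3 counts. Genes needed 50 UMIs over both days, or 20 for IgG-class against IgM or IgD class cells scaled to equal totals, and 1.5-fold served as a description of size. In a simulation of the day comparison over 8786 genes, 49 of 50 genes made 2-fold higher were called. It held counting error only, with no variation between cells or libraries. Hinge exons come from GENCODE M21 and GRCm38.

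The IgG genes, gene lists, class rules and alternatives were chosen with earlier results of these data known. The genes named are the IgG genes, the 3 members of each list farthest from 1 and the most abundant one, the 3 genes most correlated with each IgG gene, and the 5 highest and 5 lowest genes of IgG-class cells with the called members of 2 lists. One result under this rule is not reported here. The 308-UMI cell and its markers were chosen after their values were seen.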

Additional observations from a re-analysis of the deposited data

Results flagged for a closer look

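The 88 barcodes left out of the authors' tables at day 14 held 12 IgG UMIs, in 11 barcodes and with at most 2 in each, against 5 UMIs in 3 of the 86 left-out barcodes at day 0. They were looked at because these barcodes lie outside the authors' cells, and they enter the IgG ratio only in the alternative over all barcodes (8.17). At day 14 the 12 were 6 of Ighg3, 4 of Ighg2b and 2 of Ighg1, and at day 0 the 5 were 3 of Ighg2b and 2 of Ighg1. The T cells described above are among these barcodes.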

How the results depend on the processing

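No paired analysis was possible because each day has 1 library, and for the same reason no replicate could be left out. Of 51 alternative values 29 stayed within counting error of the reported value, 18 moved and 4 turned the direction.

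The IgG ratio over all cells was 0.914 (interval 0.754 to 1.11) without cells over 2 times the median UMIs, a setting that removes plasma cells. It was 0.476 (0.424 to 0.534) without the IgG-class plasma-like cells, an alternative chosen after seeing the data. The pooled B cell ratio was 0.931 (0.766 to 1.134) without cells of high UMIs and 1.12 (0.9355 to 1.332) without the top barcode of each library. It was 1.13 (0.943 to 1.345) when plasma cells were taken by at least 20 UMIs of the marker list. Each of these pooled B cell intervals includes 1, as does that of 0.914 over all cells. Applied to all cells, germinal center B-like ones included, that rule covered 95.9% of IgG UMIs at day 14 and 69.8% at day 0. It took in 4 cells of IgG class at day 0, none of them in the plasma-like cluster. Without the top barcodes the plasma-like share was 92.4% at day 14 and 31.1% at day 0. The IgG-class share of pooled B cells was 0.237% at day 14 and 0.341% at day 0 with at least 5 UMIs, 0.0646% and 0.0929% with at least 10, and 0.0218% and 0.219% after thinning. It was 0.371% at day 0 with IgG over 80% of the heavy chain. Ighm was found in 0% of IgG-class cells at day 14 without cells of high UMIs (0 of 13) and after thinning before the class call (0 of 1), and in 66.7% (2 of 3) at day 0 with at least 10 IgG UMIs. Of list genes 9 were called with no UMI minimum beyond 1, against 3, and 18 genes stood apart in cells with at least 5 IgG UMIs, against 52. Beyond fewer cells or genes, the causes were not tested.

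Depth limits what can be read in pooled B cells, where 170 of 210 cells with an IgG UMI at day 14 and 42 of 86 at day 0 had 1, which the class rule leaves out.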
